A study of Mus musculus with 8 samples.

Results

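The genes described here are 10 members of the epidermal growth factor (EGF) signalling family, picked by symbol from the 19457 gene rows of a table on cultured mouse keratinocytes. They are the ligand genes Ereg, Tgfa, Areg, Hbegf, Epgn and Btc, the ERBB receptor genes Egfr, Erbb2 and Erbb3, and the feedback inhibitor gene Errfi1. The HdR group comprised 4 libraries of primary keratinocytes from mice with the HOIL1 ΔRING1 allele, in which a RING domain is removed from HOIL-1L, a subunit of the linear ubiquitin assembly complex encoded by Rbck1. The WT group comprised 4 libraries of wild-type primary keratinocytes. Both groups were cultured from skin and collected before confluence, and the labels name no treatment, strain, age or cell type-specific driver of the allele for either. The question was how transcripts of EGF ligands and their receptors differed with the HOIL1 genotype. Nothing in the labels says whether the 4 libraries of a group came from separate mice or cultures, so p-values measure only the spread between these libraries.

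EGF family ligands are made as membrane-anchored precursors and released by ADAM proteases, after which they bind EGFR on the same or a neighbouring cell. EGFR pairs with itself or with ERBB2, which binds no ligand of its own, or ERBB3, a neuregulin receptor with little kinase activity, and signals through RAS, ERK and PI3K. In epidermis this loop is largely autocrine: keratinocytes make several of the ligands themselves, the pathway drives their proliferation, migration and wound repair, and it restrains their terminal differentiation. Amphiregulin, the product of Areg, is known for causing psoriasis-like skin disease when overproduced in mouse epidermis.

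Of the 6 ligand genes, 4 lie in one cluster on mouse chromosome 5 (GRCm38, GENCODE vM21). Epgn (91027464 to 91035215), Ereg (91074622 to 91093646) and Areg (91139599 to 91148432) follow each other on the plus strand within 121 kb, and Btc (91357261 to 91402994) lies on the minus strand 208.8 kb beyond Areg. Tgfa lies on chromosome 6 (86195223 to 86275719, plus strand). RefSeq promoter windows (GRCm38.p6, 250 bases before to 50 after a start site) were found for 7 of the 10 genes, namely Areg, Btc, Egfr, Epgn, Erbb2, Errfi1 and Tgfa. The windows of Areg and Errfi1 are shown because they share a motif near the start site, and that of Tgfa as one without it. Capitals mark the cyclic AMP response element (CRE), written TGACGTCA, which reads the same on both strands.
Areg, chr5:91139349-91139648, plus strand: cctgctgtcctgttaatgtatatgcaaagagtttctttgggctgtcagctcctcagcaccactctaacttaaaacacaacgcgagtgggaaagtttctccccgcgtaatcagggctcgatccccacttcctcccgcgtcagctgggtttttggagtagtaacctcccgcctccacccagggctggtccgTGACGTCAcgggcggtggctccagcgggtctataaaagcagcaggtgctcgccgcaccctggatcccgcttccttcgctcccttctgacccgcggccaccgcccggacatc
Errfi1, chr4:150854820-150855119, plus strand: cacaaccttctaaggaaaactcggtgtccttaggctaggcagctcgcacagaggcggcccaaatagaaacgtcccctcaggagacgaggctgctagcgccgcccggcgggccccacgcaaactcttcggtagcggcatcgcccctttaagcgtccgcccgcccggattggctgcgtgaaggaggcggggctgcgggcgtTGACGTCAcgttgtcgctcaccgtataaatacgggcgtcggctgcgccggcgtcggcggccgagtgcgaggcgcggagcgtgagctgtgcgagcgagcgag
Tgfa, chr6:86194972-86195271, plus strand: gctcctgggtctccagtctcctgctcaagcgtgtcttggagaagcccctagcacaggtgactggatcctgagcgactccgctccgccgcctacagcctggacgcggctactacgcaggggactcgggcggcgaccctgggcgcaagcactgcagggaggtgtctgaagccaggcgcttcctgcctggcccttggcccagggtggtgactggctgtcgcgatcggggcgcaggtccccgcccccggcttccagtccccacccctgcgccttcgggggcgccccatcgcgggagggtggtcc
The CRE began 61 bases before the start site in Areg and 51 bases before it in Errfi1, and 588 of 32851 promoter windows of this length (1.79%) held it. Errfi1 has a second RefSeq window upstream that lacks it, as do the windows of Erbb2, which was lower in HdR, and of Epgn, Btc and Egfr, which were not called. The CRE was looked for after the windows had been read. The other motifs searched on both strands were the AP-1 site TGANTCA, held by 7.81% of windows and by none of these genes, and the ETS site CCGGAAG, held by 8.86% of windows and here by Egfr alone. The 3 motifs did not overlap in these windows. A match describes the letters and does not show that a factor binds.

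Levels below are the deposited aligned bases per gene, scaled to each library's normalised total and written as aligned bases per megabase (per Mb). They compare a gene between libraries, not genes with each other, because a longer gene gathers more bases. Library totals were 2.31 to 4.31 Gb in HdR and 4.78 to 5.43 Gb in WT, so every HdR library was shallower and depth and genotype cannot be told apart. After all libraries had been thinned to the smallest total, each of the 10 genes kept its direction and its side of the 0.05 threshold used below. Rbck1, the gene with the altered allele, was at 43.7 ± 1.85 per Mb in HdR and 87.4 ± 3.37 in WT (SD, n = 4 each), a sum over the whole gene that cannot show the deletion itself. The libraries carried the markers of keratinocytes: 6 basal markers, Krt5 and Krt14 among them, summed to 41200 to 42505 per Mb in HdR and 38261 to 41405 in WT. Markers of leukocytes and Langerhans cells summed to at most 0.316 per Mb in HdR and 0.191 in WT, and Cd207, Adgre1 and Lyz2 were at 0 in all 8 libraries.

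All 10 genes reached the filter of a mean of 1 per Mb and were tested with limma among 11870 genes. At an adjusted p under 0.05, 2 were higher in HdR (Ereg and Tgfa), 5 were lower (Areg, Hbegf, Erbb2, Erbb3 and Errfi1) and 3 were not called (Epgn, Btc and Egfr). Calls were common in this comparison: 45.1% of all genes tested passed, 21.4% higher and 23.6% lower, which is the share the count of 7 of 10 is read against. The groups did not overlap for 2 genes that were higher and 4 that were lower, where 20% and 21.2% of all genes tested did not overlap in those directions (41.2% in all). The median log2 fold change, HdR minus WT, was -0.27 over the 10 genes and -0.01 over all genes tested, and the median absolute change was 0.32 and 0.15. Against a fold of 1.2, where 7.47% of all genes were called, Ereg, Tgfa, Erbb3 and Errfi1 were called.

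**Figure D1:**
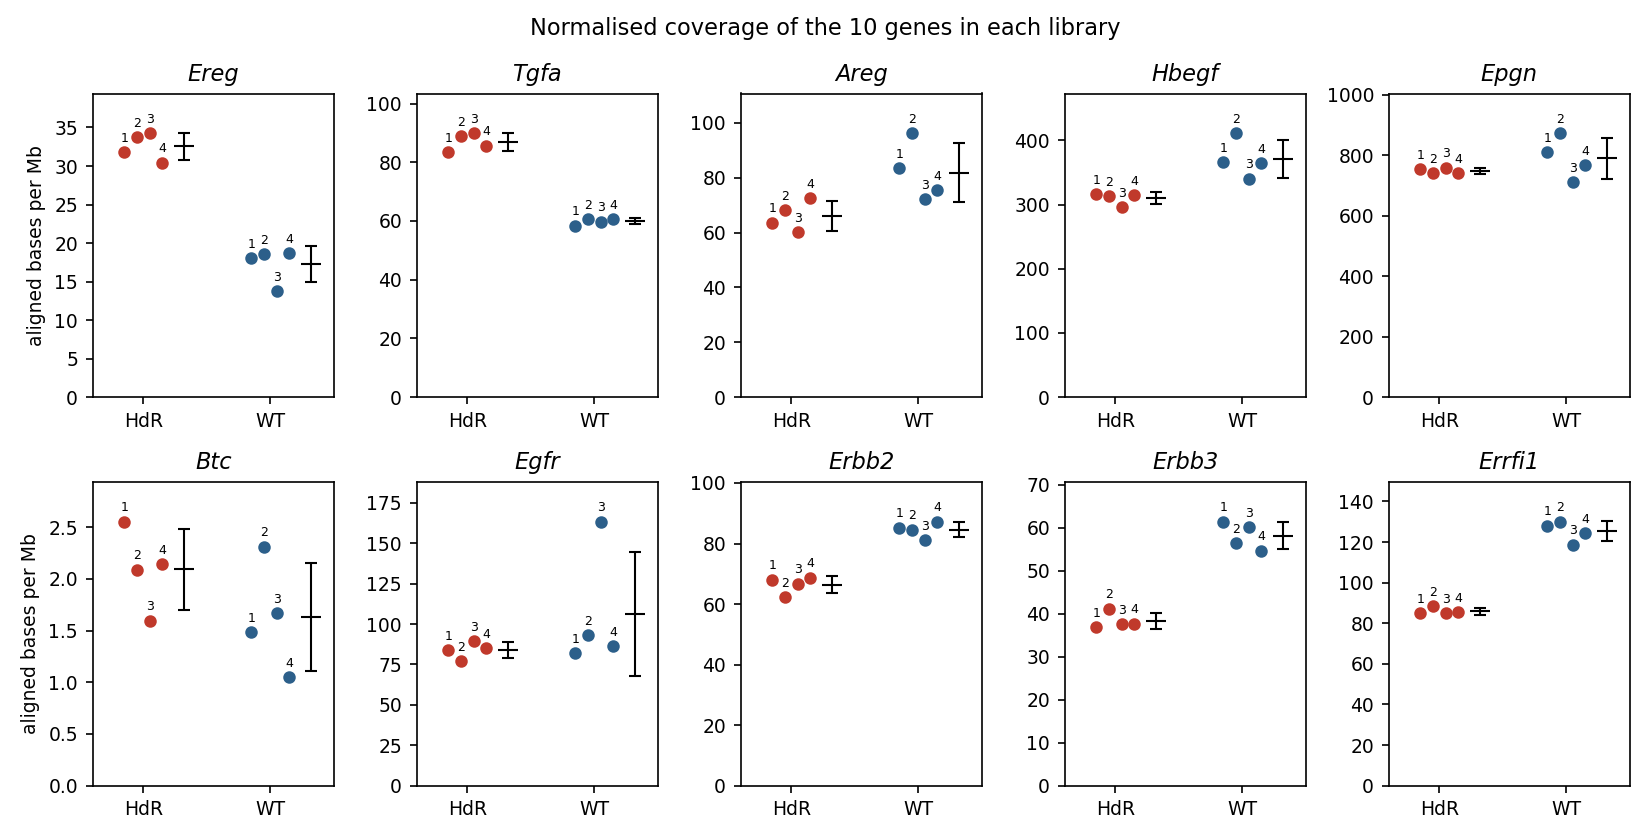
Normalised coverage of each gene in aligned bases per Mb (vertical axes, each from 0) in the 4 HdR and 4 WT libraries, with the replicate number above each point and the mean ± SD beside each group. Ereg and Tgfa sit higher in every HdR library, Hbegf, Erbb2, Erbb3 and Errfi1 sit lower in every HdR library, and WT 3 stands apart for Egfr at 163.4 per Mb.

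Epiregulin and TGF-α were the ligands whose transcripts rose. Ereg, which encodes epiregulin, a ligand of EGFR and ERBB4, was at 31.8, 33.8, 34.3 and 30.4 per Mb in HdR libraries 1 to 4, against 18.0, 18.6, 13.7 and 18.7 in WT libraries 1 to 4. The groups were far apart, with the highest WT library well under the lowest HdR library, and WT 3 lay under the other WT libraries. The log2 fold change was 0.89 ± 0.084 (SE, limma adjusted p = 5.11e-07), and the HdR mean level was 1.89 times the WT mean. Without WT 3 it was 0.79 ± 0.065 (adjusted p = 9.13e-09).

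Tgfa, which encodes TGF-α, a high-affinity EGFR ligand made by keratinocytes, was at 83.5, 88.9, 89.9 and 85.6 per Mb in HdR libraries 1 to 4, against 58.4, 60.7, 59.8 and 60.7 in WT. The WT libraries were nearly equal and all HdR libraries stood above them. Its log2 fold change was 0.53 ± 0.041 (SE, limma adjusted p = 3.62e-08), and its HdR mean level was 1.45 times the WT mean. In the annotation, 152 exonic bases of Ereg and 118 of Tgfa are shared with an opposite-strand gene that has no row in the table (Gm19610 and Gm43917), and the strand setting of the counting is not given in the sources used here.

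Amphiregulin and HB-EGF transcripts fell by smaller amounts. Hbegf (chromosome 18, 36504927 to 36515805), whose product is a heparin-binding ligand of EGFR and ERBB4 active in wound closure, was at 316, 314, 296 and 315 per Mb in HdR, against 366, 411, 341 and 364 in WT. The groups did not overlap, although HdR 1 came near WT 3. The log2 fold change was -0.25 ± 0.048 (SE, limma adjusted p = 0.000439).

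Areg was at 63.7, 68.2, 60.1 and 72.4 per Mb in HdR libraries 1 to 4, against 83.5, 96.3, 72.1 and 75.5 in WT. The groups met, since HdR 4 lay just above WT 3. The estimated difference of -0.30 ± 0.091 on the log2 scale (SE, limma adjusted p = 0.0228) passed the threshold, but not without HdR 1, HdR 3 or WT 1 (adjusted p 0.0586, 0.0569 and 0.0573) and not when genes of any level were kept (0.0864). Areg and its upstream neighbour Ereg, 46.0 kb apart, thus changed in opposite directions, with the Areg call the less secure.

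Epigen and betacellulin transcripts were not called. Epgn, which encodes epigen, a low-affinity EGFR ligand, had 754, 742, 759 and 741 per Mb in HdR, against 810, 874, 712 and 767 in WT. The HdR libraries lay inside the WT range, with a log2 fold change of -0.07 (95% interval -0.18 to 0.03, limma adjusted p = 0.236). Without WT 3, its lowest WT library, Epgn was called lower at -0.12 (adjusted p = 0.0109).

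Btc, which encodes betacellulin, a ligand of EGFR and ERBB4, was close to the filter at 2.55, 2.09, 1.60 and 2.14 per Mb in HdR, against 1.48, 2.31, 1.67 and 1.05 in WT. The groups overlapped widely, and the log2 fold change of 0.25 had a 95% interval of -0.07 to 0.56 (limma adjusted p = 0.186). At this level the pseudocount of 1 shrinks any fold.

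**Figure D2:**
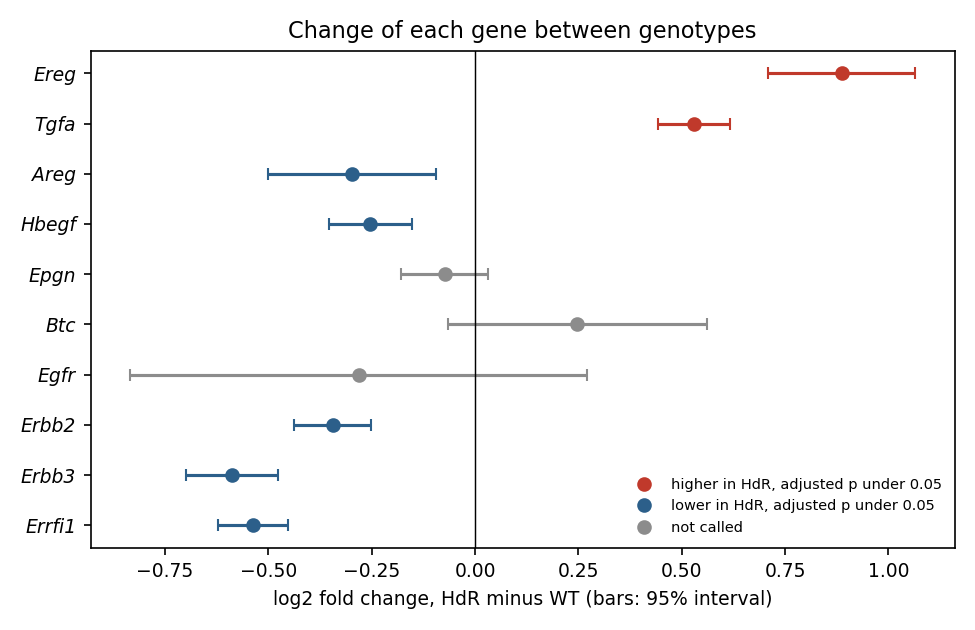
Log2 fold change, HdR minus WT, of each gene with its 95% limma interval (horizontal axis), coloured by call. Ereg at 0.89 and Tgfa at 0.53 lie to the right of 0, and Errfi1 at -0.54 and Erbb3 at -0.59 lie farthest to the left, while the interval of Egfr is the widest.

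Levels were set against each other after division by the summed length of each gene's annotated exons. Epgn then led in both genotypes, at 415 ± 5.18 per Mb per kb of exon in HdR and 438 ± 37.9 in WT (SD, n = 4), followed by Hbegf (64.2 ± 1.99 and 76.7 ± 6.13), Areg (54.4 ± 4.42 and 67.4 ± 8.86) and Errfi1 (24.0 ± 0.469 and 35.0 ± 1.39). Hbegf and Areg were separate in HdR and overlapped in WT. Btc was last, at 0.463 ± 0.0868 in HdR and 0.360 ± 0.116 in WT. The 5 genes between them were closer together. Per kb of exon, Tgfa was at 13.4 ± 0.461 in HdR and 9.23 ± 0.166 in WT, and Ereg at 7.89 ± 0.431 in HdR and 4.18 ± 0.571 in WT. Erbb2, Erbb3 and Egfr lay between 6.37 and 12.7 in HdR means and between 9.38 and 16.2 in WT means. In HdR the libraries of Tgfa and Erbb2, of Ereg and Egfr, and of Egfr and Erbb3 overlapped, and in WT those of Erbb3, Egfr and Tgfa did. With the longest coding transcript as the length, Ereg and Egfr exchanged places in HdR, Tgfa and Erbb3 did in WT, and the other genes kept their rank. Hbegf was then at 131 ± 4.05 in HdR and 156 ± 12.5 in WT, and no longer overlapped Areg in WT.

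With the summed exon length, Epgn made up 74.7 ± 0.977% of the summed ligand coverage per kb in HdR and 73.5 ± 0.391% in WT (SD, n = 4). The shares depend on that choice: the longest coding transcript would give Hbegf a larger share and Epgn a smaller one. The share of Ereg was 1.42 ± 0.0809% in HdR and 0.701 ± 0.0694% in WT, and that of Tgfa 2.42 ± 0.0892% in HdR and 1.56 ± 0.137% in WT. Hbegf took 11.6 ± 0.337% in HdR and 12.9 ± 0.295% in WT, and Areg 9.81 ± 0.790% in HdR and 11.3 ± 0.507% in WT. Tgfa, Ereg and Btc were thus the 3 scarcest ligand transcripts in both genotypes, and most ligand coverage lay in Epgn.

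Ratios between genes of the same library do not depend on its depth scaling, apart from the pseudocount. For 19 such pairs the log2 ratio was compared between genotypes with a two-sided exact permutation test over 70 regroupings, whose smallest p is 0.0286. In 11 pairs, all among the ligands, the p was that smallest value and the adjusted p was 0.0494. Areg over Ereg was 0.979, 0.994, 0.793 and 1.22 in HdR libraries 1 to 4, against 2.15, 2.31, 2.31 and 1.96 in WT, a log2 difference of -1.19. The 4 pairs of Areg or Hbegf over Ereg or Tgfa had log2 differences of -1.19 to -0.78. Areg over Tgfa, in coverage not adjusted for length, changed sides of 0, with -0.39 ± 0.138 in HdR and 0.44 ± 0.182 in WT (SD, n = 4). Hbegf over Areg did not pass, at 2.22 ± 0.0890 in HdR and 2.17 ± 0.0826 in WT (exact permutation p = 0.486, adjusted p = 0.513).

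The 2 risers also differed from each other: Ereg over Tgfa was -1.39 ± 0.0476 in HdR and -1.75 ± 0.197 in WT on the log2 scale (SD, n = 4), a difference of 0.36 with the same exact permutation adjusted p of 0.0494. An adjusted p under 0.05 needs at least 11 of the 19 pairs at the smallest p. Without HdR 1, WT 1, WT 2 or WT 4, 0 of the pairs passed, and without HdR 2, HdR 3, HdR 4 or WT 3, 12, 11, 11 and 12 did.

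**Figure D3:**
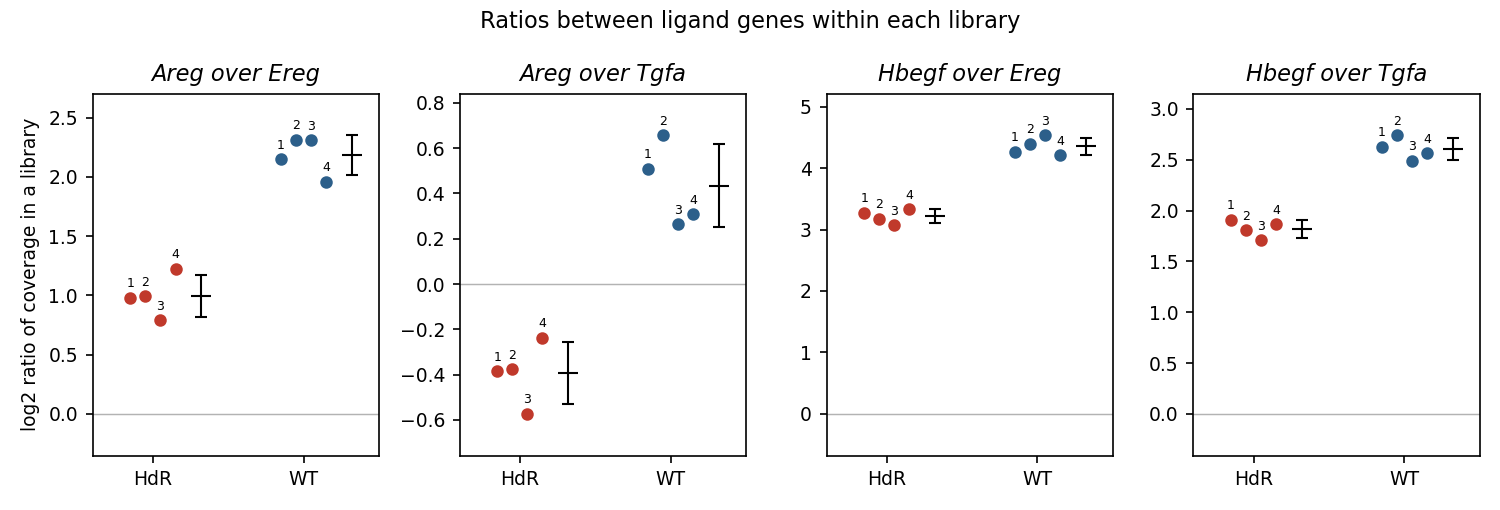
Log2 ratio of normalised coverage between a falling ligand gene (Areg or Hbegf) and a rising one (Ereg or Tgfa) in each library (vertical axes, own scale per panel, grey line at 0), with replicate numbers and the mean ± SD beside each group. In each of the 4 panels all HdR libraries lie below all WT libraries.

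Of the receptor genes, Erbb3 and Erbb2 fell, and Egfr was not called. Erbb3 (chromosome 10, 128567523 to 128589652, minus strand) was at 36.9, 41.2, 37.6 and 37.7 per Mb in HdR libraries 1 to 4, against 61.5, 56.4, 60.1 and 54.6 in WT. The groups were clearly separate, and the log2 fold change was -0.59 ± 0.053 (SE, limma adjusted p = 1.71e-07). The HdR mean level of Erbb3 was 0.659 times the WT mean. Erbb2 (chromosome 11, 98412470 to 98437716) was at 68.0, 62.2, 66.7 and 68.7 per Mb in HdR, against 85.2, 84.6, 81.2 and 87.2 in WT. All HdR libraries were lower, and the estimated log2 fold change was -0.34 ± 0.044 (SE, limma adjusted p = 8.63e-06). It shares 9 bases with Mien1 on the opposite strand. The log2 ratio of Erbb2 over Erbb3 was 0.78 ± 0.132 in HdR and 0.53 ± 0.108 in WT (exact permutation p = 0.0571, adjusted p = 0.0835). The ratios of Egfr over Erbb2 and over Erbb3 differed by 0.06 and 0.31 on the log2 scale (exact permutation, adjusted p 0.914 and 0.339). With all libraries, none of the 3 receptor pairs thus passed. In both Egfr ratios WT 3 lay above every HdR library and the other WT libraries lay below. Egfr over Erbb2 was 0.30 to 0.41 in HdR and -0.05 to 0.14 in WT 1, WT 2 and WT 4. Egfr over Erbb3 was 0.89 to 1.23 and 0.41 to 0.71 in the same libraries. Without HdR 2, Erbb2 over Erbb3 passed at 0.31 (exact permutation, adjusted p = 0.0452). It did not pass without HdR 1, HdR 3, HdR 4, WT 1 or WT 2 (adjusted p 0.116 to 0.167). Egfr over Erbb2 passed without WT 3, at 0.31 (exact permutation, adjusted p = 0.0452).

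Egfr itself (chromosome 11, 16752203 to 16918158, plus strand) was not called. Its levels were 84.0, 77.0, 89.2 and 85.1 per Mb in HdR libraries 1 to 4, against 82.1, 93.2, 163.4 and 86.5 in WT. The 2 groups lay in the same range apart from WT 3, which held 1.87 times the mean of the other WT libraries. The log2 fold change was -0.28 with a 95% interval of -0.84 to 0.27 (limma adjusted p = 0.362), and without WT 3 it was -0.06 ± 0.052 (SE, adjusted p = 0.387). Of 11870 genes, 18 including Egfr stood at least as far above the other WT libraries in WT 3, with a pseudocount of 1 in the ratio. WT 3 was also the deepest library and had the highest sum of 8 suprabasal keratinocyte markers, at 3095 per Mb, against 2304 to 2779 in the other WT libraries. The part of these in the Egfr value was not tested.

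In these bulk libraries, fewer cells of a type and less RNA per cell cannot be told apart. This touches Erbb3, which melanocytes also express. The 10 melanocyte markers summed to 27.4 to 29.6 per Mb in HdR and 52.7 to 60.6 in WT, and of the 7 that were tested 6 were lower and none higher in HdR, with Dct at 6.66 ± 0.944 per Mb in HdR and 16.4 ± 1.51 in WT (SD, n = 4). No melanocyte marker was at 0 throughout. Of 8 suprabasal keratinocyte markers 7 were lower and none higher, with sums of 1581 to 1824 in HdR and 2304 to 3095 in WT. Ivl, the suprabasal marker not called, was at 26.0 ± 2.04 per Mb in HdR and 20.8 ± 5.19 in WT (SD, n = 4). Of 6 basal keratinocyte markers 4 were higher and 0 lower in HdR, with log2 fold changes from -0.03 (Krt14) to 0.43 (Itgb4). These counts are read against the 23.6% lower and 21.4% higher among all genes tested. Of 7 Schwann cell markers, another ERBB3-bearing lineage, Pmp22 alone reached the filter, and the sums were 10.4 to 12.6 in HdR and 17.6 to 21.2 in WT. The part of these markers in the Erbb3 result was not tested.

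**Figure D4:**
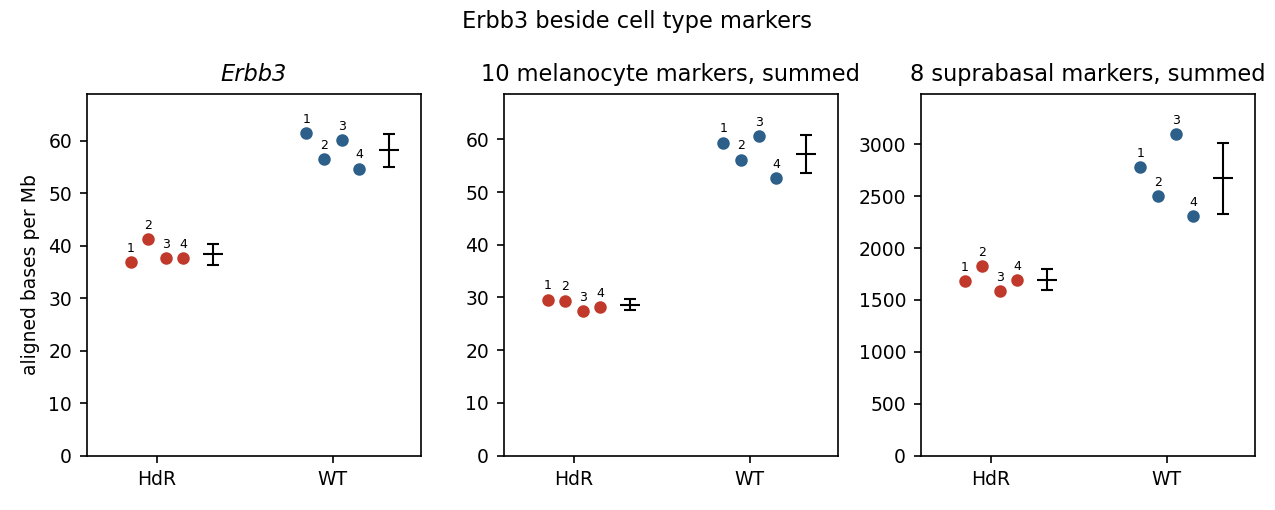
Erbb3 coverage, the summed coverage of 10 melanocyte markers and that of 8 suprabasal keratinocyte markers, in aligned bases per Mb (vertical axes from 0), for each HdR and WT library with the mean ± SD beside each group. All 3 are lower in every HdR library, with melanocyte sums of at most 29.6 in HdR and at least 52.7 in WT.

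The feedback inhibitor fell. Errfi1 (chromosome 4, 150853919 to 150868892), whose product MIG6 binds the EGFR kinase domain and whose transcription is induced by EGFR signalling, was at 85.1, 88.5, 84.9 and 85.4 per Mb in HdR libraries 1 to 4, against 128, 130, 119 and 124 in WT. The HdR libraries were nearly equal and lay well below all WT libraries. The log2 fold change was -0.54 ± 0.040 (SE, limma adjusted p = 1.95e-08), and the HdR mean level was 0.686 times the WT mean. An opposite-strand gene without a row, 1700045H11Rik, shares 187 exonic bases with it. Errfi1 over Egfr had a log2 ratio of 0.04 ± 0.114 in HdR and 0.29 ± 0.505 in WT (exact permutation p = 0.4, adjusted p = 0.447). Without WT 3 the difference in this ratio was -0.51 (exact permutation, adjusted p = 0.0452) instead of -0.26.

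Among all other genes tested, the 5 whose log2 levels over the 8 libraries were most like those of Ereg were Ptpn13, Gtf2h1, Nop58, Steap4 and Pcyt1b, with Pearson r of 0.986 to 0.996. For Erbb3 they were Cxcr2, Cebpb, Trappc6a, Ndufa4l2 and Nupr1, with r of 0.995 to 0.998. These are descriptions over 8 libraries that fall into 2 genotypes, so a difference between genotypes by itself gives a high r. The 5 genes like Ereg all rose by less on the log2 scale (0.13 to 0.41), and the 5 like Erbb3 had larger falls (-1.44 to -0.63).

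Other genes of the pathway were taken from 5 lists chosen with earlier results of these data known. Of 10 genes for ligand processing and shedding, all tested, 2 were higher, 3 lower and 5 not called in HdR, with a median log2 fold change of 0.01. Over all genes tested 21.4% were higher and 23.6% lower (45.1% called), and 5 of 10 is close to that share. The metalloprotease gene Adam12 was at 21.3 ± 1.53 per Mb in HdR and 5.10 ± 0.951 in WT (SD, n = 4), a log2 fold change of 1.88. Timp3, which encodes a metalloprotease inhibitor that restrains ADAM17, was at 141 ± 9.80 in HdR and 234 ± 20.5 in WT, a log2 fold change of -0.72. Adam9 fell by 0.31 and Rhbdf2, whose product escorts ADAM17 to the cell surface, by 0.16 on the log2 scale. The main sheddase genes themselves did not pass, with Adam17 at 94.2 ± 1.86 per Mb in HdR and 92.3 ± 3.23 in WT and Adam10 at 130 ± 1.27 in HdR and 125 ± 7.88 in WT.

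The other ligands of the family were split. Of 6 listed genes 3 were tested: Nrg1 rose, Nrg2 fell and Nrg4 did not pass, where 45.1% of all genes were called. Nrg1, which encodes the neuregulin that binds ERBB3 and ERBB4, was at 63.8, 62.1, 66.2 and 63.4 per Mb in HdR libraries 1 to 4, against 43.6, 50.9, 42.1 and 50.3 in WT. It was higher in every HdR library, the opposite direction to Erbb3, and the estimated difference was 0.45 ± 0.059 on the log2 scale (SE, limma adjusted p = 1.19e-05). Nrg2, which encodes another neuregulin, was at 4.47, 7.07, 6.32 and 5.61 per Mb in HdR, against 15.8, 19.2, 14.0 and 17.0 in WT. Every HdR library was far below every WT library, and the log2 fold change was -1.35 ± 0.12 (limma adjusted p = 2.41e-07). Nrg4 was at 3.17 ± 0.212 in HdR and 2.47 ± 0.400 in WT (limma adjusted p = 0.0627). Its HdR libraries all lay above its WT libraries, as they did for 20% of all genes tested. Erbb4 was at 0 in all 8 libraries, and Egf stayed at or under 0.653 per Mb.

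Genes that relay the signal inside the cell moved both ways, with more of the called ones lower. Of 26 adaptor, RAS-MAPK and PI3K genes 25 were tested, of which 4 were higher, 10 lower and 11 not called (median -0.11), where 45.1% of all genes were called. Against a fold of 1.2, 0 of them and 7.47% of all genes were called, and for 25 genes 0 is near that share. The change farthest from 0 was that of the ERK1 gene Mapk3, named after its values were seen, at -0.40. Akt1 rose by 0.25 on the log2 scale, while Akt2 fell by 0.21, the RAS activator gene Sos2 fell by 0.35 and the PI3K regulatory subunit gene Pik3r2 fell by 0.29.

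Of 28 genes for receptor turnover and feedback 26 were tested, of which 3 were higher, 6 lower and 17 not called (median -0.04), a smaller share called than the 45.1% of all genes. A pair of inhibitors of the pathway moved in opposite directions. Dusp6, the ERK phosphatase gene, was at 105 ± 3.65 per Mb in HdR and 149 ± 10.7 in WT (SD, n = 4), a log2 fold change of -0.51 ± 0.048 (limma adjusted p = 3.02e-07), which is the direction of Errfi1. Lrig1, whose product promotes degradation of ERBB receptors, was at 79.3 ± 4.89 in HdR and 52.1 ± 4.41 in WT, a log2 fold change of 0.60 ± 0.058 (adjusted p = 5.03e-07). Spred3 rose by 0.54 and the endocytic adaptor gene Epn1 fell by 0.18. The ubiquitin ligase genes Cblb and Cblc were lower (-0.26 and -0.18), and Cbl did not pass (0.03, adjusted p = 0.843).

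Transcripts known to be induced by EGFR and ERK signalling went both ways. Of 27 listed genes 25 were tested, of which 9 were higher, 12 lower and 4 not called (median -0.23). Over all genes tested 21.4% were higher and 23.6% lower, with a median of -0.01. Against a fold of 1.2, 6 of the 25 were higher and 9 lower, where 7.47% of all genes were called. Cyr61 rose by 0.70 on the log2 scale, while Dusp1, Junb and Ier2 fell by 0.67, 0.60 and 0.71. The related ETS factor genes Etv4 and Etv5, named after their values were seen, differed in direction: Etv4 was at 23.6 ± 2.25 per Mb in HdR and 10.4 ± 0.804 in WT, and Etv5 at 7.72 ± 0.848 in HdR and 10.9 ± 1.39 in WT.

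**Figure D5:**
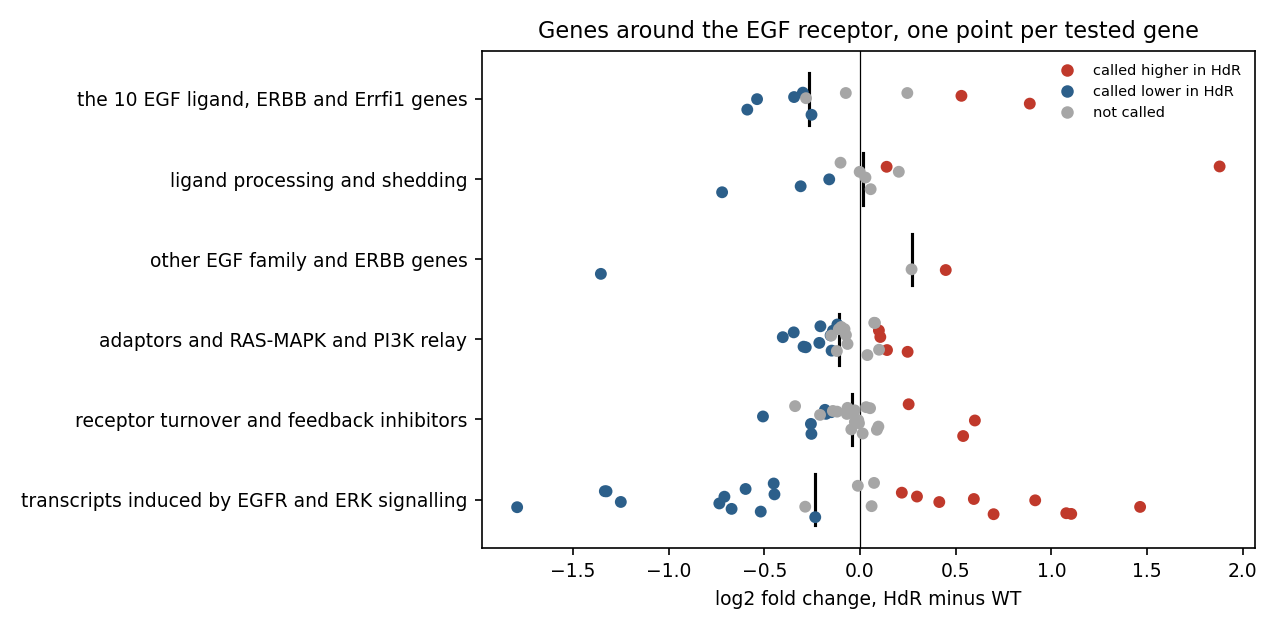
Log2 fold change, HdR minus WT, of every tested gene (1 point each, vertical spread within a row is arbitrary) in the family and in 5 lists of pathway genes, coloured by call, with a black bar at each median. The relay genes have a median of -0.11, and the induced transcripts spread on both sides of 0 around a median of -0.23.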

How the data were processed

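RNA from cultured keratinocytes was sequenced in 4 HdR and 4 WT libraries (RNeasy extraction, NEBNext Ultra II library kit, per the labels' protocols). The submitters' processing notes name GRCm38 as the build; the aligner, counting tool, annotation and strand setting are not given in the sources used here. The authors deposited 1 table whose values are signal, read from the values as summed coverage: whole numbers of aligned bases per gene, unscaled, with 302 (a pair of 151-base reads) as the commonest step. Only 16.9% of non-zero values under 10 steps were whole multiples of it, so they are not read counts. The main fit used no count model, counting interval or floor. Thinning and limma-voom, run as alternatives, treated the values divided by 302 as read pairs, which they only approximate.

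Libraries were scaled with trimmed-mean (TMM) factors (30% of log ratios and 5% of mean levels trimmed at each end) to aligned bases per Mb. Genes with a mean of at least 1 (11870 of 19457) were fitted on log2(level + 1) with limma 3.58.1 in R 4.3.3 (mean trend, robust variance, statmod 1.5.0), genotype as the only factor, two-sided, Benjamini-Hochberg over all genes. Log2 fold changes are on that scale, while multiples of the WT mean are ratios of mean levels without the pseudocount. Pair ratios used exact permutation tests adjusted over 19 pairs. The limma fit was checked on simulated counts in which few genes differed. That setting is unlike these data, whose values are not counts and where 45.1% of genes were called. Members and gene lists were chosen with earlier results of these data known. The named genes are the 10 members, Rbck1, up to 4 genes of each pathway list with the smallest p, the likeness genes, and marker genes; Adam17, Adam10, Mapk3, Cblb, Cblc, Cbl, Etv4, Etv5, Erbb4 and Egf beyond that rule were named after their values were seen. Figures used Python 3.11.15 and matplotlib 3.10.9. Alternatives were other scalings, filters, pseudocounts, limma-voom, thinning, a replicate block, a fold threshold and libraries left out.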

Additional observations from a re-analysis of the deposited data

Results flagged for a closer look

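A library was picked out where its gap to the nearest of the 4 libraries of its genotype passed Dixon's 95% criterion. Chance picks out about 5% of groups, and 5 of 60 gene groups and 5 of 38 ratio groups were picked out here. WT 3 was high for Egfr, at 163.4 aligned bases per Mb against 82.1 to 93.2 in the other WT libraries, low for Ereg (13.7 against 18.0 to 18.7) and high for Epn1 (216.8 against 199.1 to 202). Its log2 ratios of Errfi1 over Egfr (-0.46 against 0.48 to 0.64) and Ereg over Tgfa (-2.04 against -1.66 to -1.64) stood apart with them. HdR 3 was low for Hbegf (295.9 against 313.5 to 316) and for Hbegf over Epgn (-1.36 against -1.25 to -1.23), and high for Egfr over Erbb2 (0.41 against 0.30 to 0.30). HdR 2 was high for Errfi1 (88.5 against 84.9 to 85.4), and HdR 4 low for Ereg over Tgfa (-1.46 against -1.37 to -1.36). The causes were not tested.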

How the results depend on the processing

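Ereg, Tgfa, Erbb3 and Errfi1 kept direction and call in all 20 alternatives, over log2 ranges of 0.76 to 0.96, 0.50 to 0.57, -0.62 to -0.54 and -0.56 to -0.49. Btc had no value under the stricter filter. Areg lost its call when no filter was applied (-0.30, adjusted p = 0.0864). Against a fold of 1.2, 2 of the 10 genes were lower, and Hbegf (-0.25), Areg (-0.30) and Erbb2 (-0.34) lost their calls. In all, 347 genes were higher and 540 lower, or 7.47% of all genes tested. Counts higher and lower were then 1 and 1 of 10 for ligand processing, 0 and 0 of 25 for the relay and 1 and 1 of 26 for turnover and feedback. They were 1 and 1 of 3 for the other EGF family genes and 6 and 9 of 25 for the induced transcripts. Upper-quartile scaling and limma-voom gave 2 higher among the other EGF family genes, and thinning gave 2 higher among the relay genes. Upper-quartile scaling made 3113 genes higher and 2278 lower (57.7% higher), against 2545 and 2805 (47.6%) with TMM factors; all 10 genes kept their direction. A pseudocount of 0.1 left 0 of 19 ratios called.

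Deviations of same-numbered HdR and WT libraries had correlations across genes of -0.22 to 0.03, and 2 of 4 were best with their own number. So few values cannot decide whether the numbers pair the libraries, and the main fit did not pair them. With a replicate block 2256 genes were higher and 2502 lower, 2 relay genes were higher and 0 ratios were called, a paired test over 4 numbers.

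Leaving out 1 library at a time gave -0.36 to -0.22 for Areg, -0.12 to -0.025 for Epgn, 1 to 2 higher other family genes, 2 to 5 higher relay genes and 0 to 12 called ratios. Egfr over Erbb2, 0.06 with all libraries, ranged from -0.045 (without WT 1) to 0.31 (without WT 3) and was -0.03 without WT 4. The causes were not tested. Depth is known only as aligned bases, so counting error could not be separated from the spread between libraries, and Btc is the gene this limits most.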
